A study of Mus musculus with 2 samples.

Results

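The 47 genes described here encode factors of ribosome biogenesis and proteins of the nucleolus, together with Myc and Mycn, the transcription factors best known for driving this program. They were taken by gene symbol from a list of ribosome biogenesis factors, and all 47 were found among the 55348 gene entries of both deposited tables. The data came from E13.5 mouse embryonic hearts, when heart muscle still grows mainly by cell division. There was 1 RNA-seq library from wild type hearts and 1 from hearts of genotype Lmna H222P/H222P, which carry on both alleles a missense mutation of the gene of lamins A and C used to model human laminopathy. Both were labelled strain 129sv and total RNA, and neither received a named agent. The sources used here do not say how many hearts were pooled or of which sex. The labels of the series concern the histone demethylase LSD1 and prevention of cardiomyopathy, and the comparison of the 2 libraries asked how the mutant heart transcriptome differs at this stage.

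Ribosomes are built in the nucleolus. RNA polymerase I transcribes a long precursor of ribosomal RNA, small nucleolar ribonucleoprotein particles (snoRNPs) modify it and guide its cutting, and assembly factors fold it with ribosomal proteins into a small and a large subunit that leave the nucleus. Transcripts of these factors are generally abundant in growing and dividing cells, among them embryonic cardiomyocytes, in which Mycn is needed for proliferation.

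The wild type library held 32669225 reads on genes and the H222P library 25120790. With 1 library per genotype the differences below have no replicate check and are given without p-values, and ratios are given as log2 of H222P over wild type. The 95% intervals in brackets cover counting error only. Values were scaled by TMM factors and given as CPM, scaled counts per 1e+06 reads, and a gene was measured when its mean reached 1 CPM, which held for 14716 genes. Markers of other cells differed strongly between the libraries. All 8 cardiomyocyte markers were present in both, with a summed level of 22941 CPM in wild type and 13059 CPM in H222P, and 6 of them were at least 1.5-fold lower in H222P. The 8 hepatocyte markers, all at least 1.5-fold higher, summed to 9.71 and 5389.6 CPM, and the 8 red cell precursor markers, 7 of them higher, to 422 and 2351 CPM, with no marker of these lists at 0 in either library. Endothelial markers summed to 687 and 440 CPM, those of fibroblasts and cushion mesenchyme to 3626 and 1667 CPM. Of these last 5 markers 4 were at least 1.5-fold lower, while Pdgfra was higher, at 77.2 and 185 CPM. Of the 4 lung bud markers 3 were at least 1.5-fold lower (median log2 ratio −0.93) and only Foxf1 was higher, and with it their sum was 47.4 and 72.0 CPM. Neural markers summed to 11.6 and 34.2 CPM, with 3 of 4 at least 1.5-fold higher, and macrophage markers to 46.6 and 39.4 CPM. Among the 4 macrophage markers only Ptprc had a log2 ratio above 0, at 111 and 185 reads. Reads of Xist (12116 and 1727) and of Ddx3y (1224 and 3126) were present in both libraries, so each held RNA of both sexes in unequal amounts. In bulk RNA, fewer cells of a type and less RNA per cell cannot be told apart.

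Nearly the whole set of ribosome biogenesis genes was higher in the H222P library, each by a modest amount. Of the 47 members, all of them measured, 10 were at least 1.5-fold higher, 0 were at least 1.5-fold lower and 37 lay between. Among all measured genes 10.9% were at least 1.5-fold higher and 11.5% at least 1.5-fold lower. The counts of the other lists below stand beside these same shares. The members' log2 ratio was above 0 in 44 of 47, against 49.2% of all measured genes, and the whole counting interval was above 0 in 43 of 47, against 31.6%. No member had an interval wholly below 0, which 34.2% of all genes had. For 5 members (Myc, Ppan, Noc4l, Rrp12 and Nolc1) the whole interval lay beyond 1.5-fold higher, against 6.8% of all measured genes. The median log2 ratio of the members was 0.43 (range −0.07 to 0.94), beside −0.01 for all measured genes. None reached 2-fold. The members are all well expressed, with a lowest mean of 25.3 CPM, so 8208 genes with a mean of 20 CPM or more make a second background. Of these, 4.43% were at least 1.5-fold higher and 7.91% lower, 46.6% had a log2 ratio above 0, 33.9% and 40.6% had intervals wholly above and below 0, and 3.2% had an interval wholly beyond 1.5-fold higher. The members' 44 above 0 lay far from either background, and their 10 of 47 past 1.5-fold higher lay further from the second than from the first. Beside these values stand the hepatocyte and red cell precursor markers, higher in the same library by 9.12 and 2.48 on the log2 scale of their sums. Their part in the members' ratios was not tested.

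**Figure D1:**
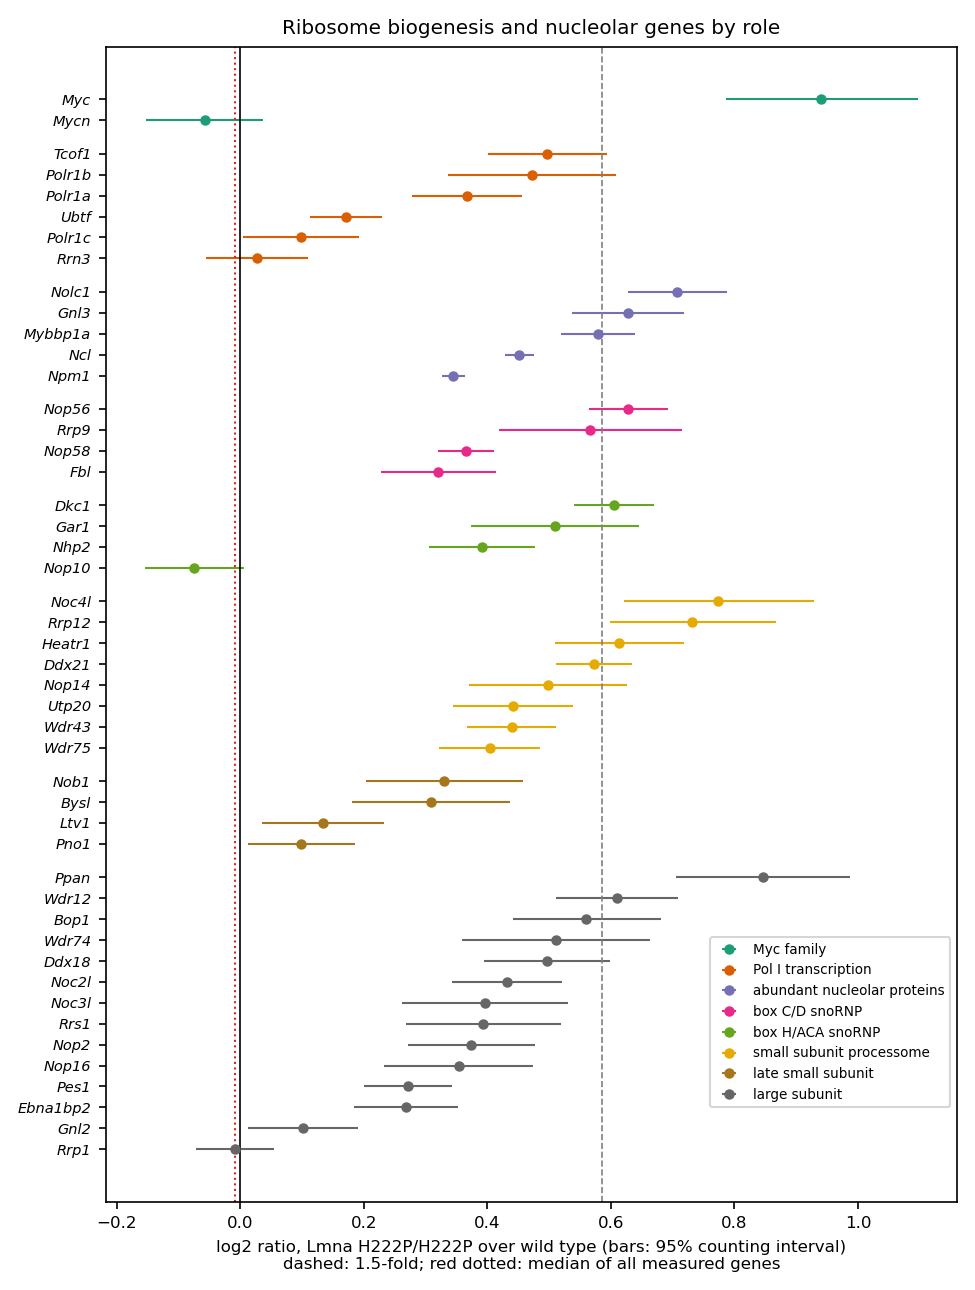
Log2 ratio of H222P over wild type (horizontal axis) for each of the 47 members, grouped by role, with 95% counting intervals as bars, 1 library per genotype. Of the 47 points, 44 lie to the right of 0 and 10 reach the dashed line at 1.5-fold, and the 4 late small subunit factors lie left of all 8 small subunit processome factors.

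Together the members took 0.503% of reads on genes in the wild type library (exact binomial interval 0.501 to 0.505) and 0.729% in the H222P library (0.726 to 0.733). Npm1 and Ncl alone supplied 45.0% of the members' reads in each library. Without them the median log2 ratio of the remaining 45 members was 0.43, the same as that of the whole set. Among members, the higher ratios tended to lie with genes of lower level: across the 47 genes Spearman's rho between the log2 ratio and the level per coding length was −0.43, and Pearson's r with the log2 level was −0.39. These are descriptions across genes of the same 2 libraries, which share depth and composition. Level was divided by coding length, so the parts of level and length in these values were not separated.

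**Figure D2:**
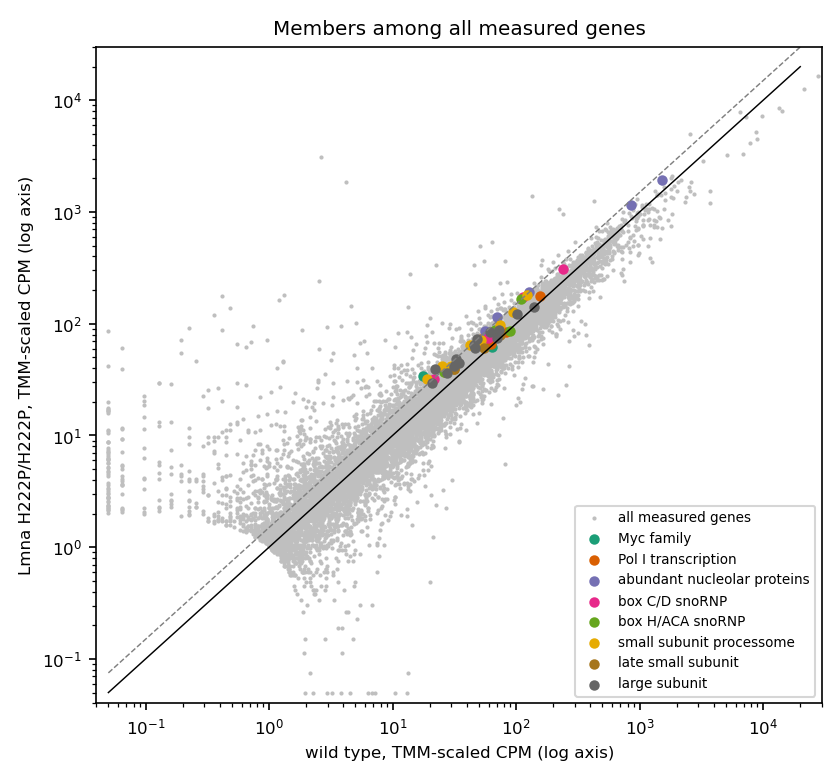
TMM-scaled CPM in wild type (horizontal log axis) against H222P (vertical log axis) for all 14716 measured genes in grey and the 47 members in the colour of their role, with genes under 0.05 CPM drawn at that value. The solid line marks equal levels and the dashed line 1.5-fold higher in H222P; 44 members lie above the solid line.

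Myc and Mycn did not move together. Myc (chromosome 15, 61985391 to 61990374, GRCm38, the assembly of mm10) had 547 reads in wild type and 898 in H222P, or 17.7 and 33.9 CPM. Its log2 ratio of 0.94 (0.79 to 1.10) was the highest of the set and corresponds to 1.92-fold. Mycn (chromosome 12, 12936093 to 12941914) had 1994 and 1638 reads, or 64.4 and 61.8 CPM. The interval of its log2 ratio of −0.06 (−0.15 to 0.04) included 0. In CPM per kilobase of coding sequence, Mycn stood at 46.4 in wild type and 44.6 in H222P, above Myc at 13.0 and 24.9. The excess of Mycn over Myc was thus smaller in the H222P library.

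Of the partners of the Myc network, the proteins that pair or compete with Myc at DNA, 2 of 11 were at least 1.5-fold higher and 1 was lower (median 0.14). Among all measured genes these shares were 10.9% and 11.5%. Mycl, the third Myc paralogue, was sparse at 98 and 203 reads, with a log2 ratio of 1.27 (0.92 to 1.64). Mxd3, a partner of Max that opposes Myc, was lower, at 395 and 220 reads and −0.62 on the log2 scale (−0.86 to −0.38). Further partners of this kind, named after the values were seen, lay on both sides. Mxd1 had 0.62 (0.45 to 0.79) and Mnt 0.29 (0.14 to 0.44), Mxd4 −0.37 (−0.46 to −0.29) and Mxi1 −0.06 (−0.17 to 0.05). Mga, the most abundant, had 0.02 (−0.05 to 0.09).

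Myc and Max bind the E-box CACGTG, so this sequence was searched in the RefSeq promoter windows of build GRCm38.p6, which run from 250 bases before to 50 bases after each start. The letters read the same on both strands. Windows were found for 39 of the 47 members, and 8 of them (20.5%) held the E-box, against 8.09% of all 27025 genes in the table and 11.6% of measured genes. Among other ribosome biogenesis genes the share was 19.4%. In 6 of the 8 members every match lay in the first 50 bases after the start, and only 2 members (5.13%) held it upstream, against 9.84% of measured genes and 6.86% of all genes. The 9 matches are shown because they place the E-box against the start site; each line gives up to 30 bases on the gene's strand, 5′ to 3′, with the E-box in capitals.
Nop2, chr6:125131811-125131840, plus strand, first capital 60 bases before the start: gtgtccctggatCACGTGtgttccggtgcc
Rrn3, chr16:13780472-13780501, plus strand, 215 bases before the start: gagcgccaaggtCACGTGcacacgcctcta
Rrn3, chr16:13780639-13780668, plus strand, 48 bases before the start: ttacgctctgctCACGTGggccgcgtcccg
Pes1, chr11:3963965-3963994, plus strand, base 3 of the transcript: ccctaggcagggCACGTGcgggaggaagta
Wdr43, chr17:71616220-71616249, plus strand, base 18: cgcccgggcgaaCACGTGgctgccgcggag
Ltv1, chr10:13193092-13193121, minus strand, base 29: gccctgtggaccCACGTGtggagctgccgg
Utp20, chr10:88826765-88826789, minus strand, base 38: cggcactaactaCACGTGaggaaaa
Pno1, chr11:17211540-17211564, minus strand, base 38: tgtacaaccacgCACGTGttcctct
Mybbp1a, chr11:72441355-72441376, plus strand, base 41: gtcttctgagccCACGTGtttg

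Among the 39 members with a window, those with the E-box were not those with the highest ratios. Their median log2 ratio was 0.32 (0.03 to 0.58, n = 8), with 0 at least 1.5-fold higher. That of the 31 members without it in the window was 0.45, with 8 at least 1.5-fold higher. Myc and Rrp12, both at least 1.5-fold higher, had no window and were not searched. A second sequence, the ETS-type CCGGAAGT on either strand, was chosen after the data were seen. It occurred in 10 of the 39 members (25.6%), in 30.1% of other ribosome biogenesis genes, in 8.56% of measured genes and in 4.31% of all genes. The median log2 ratio was 0.41 with it and 0.44 without it. Ltv1 and Rrn3 held both sequences, with 0 overlapping matches. The 2 members at least 1.5-fold higher that held the ETS-type sequence are shown with it in capitals. The median GC content of the windows was 57.0% in members, 61.0% in measured genes and 52.7% in all genes.
Ppan, chr9:20888182-20888211, plus strand, base 19 of the transcript: gccgcgtggcaCCGGAAGTtggccacgtaa
Heatr1, chr13:12395348-12395377, plus strand, 16 bases before the start: gtagtgagaagCCGGAAGTtcctatgaggc

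Genes of RNA polymerase I transcription split into a higher and an almost even part. None of the 6 was at least 1.5-fold higher, and their median log2 ratio was 0.27. Tcof1, whose product treacle links the polymerase to pre-rRNA processing, had 1597 reads in wild type and 1927 in H222P and a log2 ratio of 0.50 (0.40 to 0.59). Polr1b and Polr1a, the large catalytic subunits, had ratios of 0.47 (0.34 to 0.61) and 0.37 (0.28 to 0.46), from 818 and 970 reads and from 1966 and 2167 reads. The other members were closer to 0. Ubtf, the factor that keeps ribosomal RNA genes open, had 0.17 (0.11 to 0.23), and Polr1c, a subunit shared with RNA polymerase III, 0.10 (0.00 to 0.19). Rrn3, which brings the polymerase to its promoter, had 2549 and 2220 reads and a ratio of 0.03 (−0.06 to 0.11), which fell to −0.001 with DESeq2 size factors. Of 10 further genes of this step, 0 were at least 1.5-fold higher and 1 was lower, with a median of 0.08. The lower one was the polymerase I subunit gene Polr1e, with 940 and 527 reads and a log2 ratio of −0.61 (−0.77 to −0.45), opposite in sign to Polr1a and Polr1b.

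The abundant nucleolar proteins were all higher, with a median log2 ratio of 0.58 over 5 genes. Npm1, the nucleolar chaperone nucleophosmin (chromosome 11, 33152287 to 33163206), had 47512 reads in wild type and 51589 in H222P, or 1533 and 1948 CPM, a ratio of 0.35 (0.33 to 0.36). Ncl, nucleolin (chromosome 1, 86344719 to 86359400), had 26449 and 30928 reads, or 854 and 1168 CPM, a ratio of 0.45 (0.43 to 0.48). The less abundant members of this group stood further apart. Nolc1, a chaperone of snoRNPs, had 2188 and 3055 reads and was 1.63-fold higher (1.55 to 1.73). Gnl3, nucleostemin, had 1723 and 2275 reads and was 1.54-fold higher (1.45 to 1.65). Mybbp1a, a nucleolar protein that binds Myb and takes part in pre-rRNA processing, lay just under the bound at 1.49-fold (1.43 to 1.56). Dkc1 at 1.52-fold was the member just above it.

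The box C/D particle methylates ribosomal RNA, and the 4 members grouped with it here were all higher, with a median of 0.47. Nop56, a core scaffold, had 3510 reads in wild type and 4637 in H222P, a ratio of 0.63 (0.56 to 0.69). Its partner Nop58 was more abundant, with 7481 and 8235 reads, and had a ratio of 0.36 (0.32 to 0.41). Their intervals did not overlap. Fbl, the methyltransferase fibrillarin, had 1843 and 1968 reads and a ratio of 0.32 (0.23 to 0.41), and Rrp9, a protein of the particle that guides early pre-rRNA cleavage, had 668 and 846 reads and a ratio of 0.57 (0.42 to 0.72).

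The box H/ACA particle, which turns uridines into pseudouridines, held both a high and the lowest member. Dkc1, the pseudouridine synthase dyskerin (chromosome X, 75095854 to 75109777), had 3408 and 4432 reads and a log2 ratio of 0.61 (0.54 to 0.67). It is X-linked, and the libraries differed in Xist and Y-linked reads as given above. Without Dkc1 the median of the other 46 members was 0.42. Gar1 had 808 and 983 reads and a ratio of 0.51 (0.37 to 0.65), and Nhp2 had 2094 and 2348 reads and a ratio of 0.39 (0.31 to 0.48). Nop10, the smallest protein of the particle (chromosome 2, 112261926 to 112263269), had 2783 and 2260 reads, or 89.8 and 85.3 CPM. Its ratio of −0.07 (−0.15 to 0.01) was the lowest of the set, and its interval did not overlap those of its 3 partners. Of 10 measured genes for the assembly of snoRNPs, 0 were at least 1.5-fold higher or lower (median 0.20). Among these, Shq1, a chaperone of Dkc1, had 0.33 (0.11 to 0.55), Tgs1, the most abundant, 0.18 (0.09 to 0.26), and Pih1d1 −0.21 (−0.32 to −0.10).

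The small subunit processome, the particle that assembles on the front part of the pre-rRNA, was the role with the highest median after the abundant nucleolar proteins. All 8 of its members were higher, from 0.40 to 0.77 on the log2 scale, with a median of 0.54. Noc4l had 584 reads in wild type and 854 in H222P and was 1.71-fold higher (1.54 to 1.90). Its known partner Nop14 stood at 914 and 1104 reads and at 0.50 on the log2 scale (0.37 to 0.63). Rrp12, a repeat protein that also serves export of subunits, had 774 and 1099 reads and was 1.66-fold higher (1.51 to 1.82). Heatr1, Wdr43 and Wdr75 belong to the complex that first binds the pre-rRNA. Heatr1 had 1311 and 1715 reads and a ratio of 0.61 (0.51 to 0.72), Wdr43 2934 and 3401 reads and 0.44 (0.37 to 0.51), and Wdr75 2296 and 2597 reads and 0.40 (0.32 to 0.49). The RNA helicase gene Ddx21 had 0.57 (0.51 to 0.63), from 3789 and 4816 reads, and Utp20 had 0.44 (0.34 to 0.54), from 1616 and 1876 reads. Of 42 further processome genes, 2 were at least 1.5-fold higher and 0 lower. Beside these stand 10.9% and 11.5% of all measured genes, and 4.43% and 7.91% of genes with a mean of 20 CPM or more. In 38 of the 42 processome genes the log2 ratio was above 0 (median 0.28), against 49.2% of all measured genes. Rcl1, a protein of the pre-rRNA cleavage step, stood highest among them, with 451 and 816 reads and 2.12-fold (log2 interval 0.91 to 1.25).

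Factors of the late small subunit were nearer to even. Their 4 log2 ratios, 0.10 to 0.33 with a median of 0.22, all lay below the lowest value of the processome members. The intervals of Nob1 and Bysl overlapped that of Wdr75 (0.32 to 0.49), the lowest of the processome members. Nob1, the nuclease that makes the final cut of small subunit rRNA, had 977 and 1050 reads and a ratio of 0.33 (0.20 to 0.46). Pno1, its partner on the pre-ribosome, had 2300 and 2106 reads and a ratio of 0.10 (0.01 to 0.19). Bysl had 976 and 1033 reads and a ratio of 0.31 (0.18 to 0.44), and Ltv1, an export adaptor, had 1714 and 1608 reads and a ratio of 0.13 (0.04 to 0.23). Of 10 measured further genes of this step, 0 were at least 1.5-fold higher or lower. Their median was 0.22, beside 0.28 for the 42 further processome genes, which reached down to −0.13. With so few genes and 1 library per genotype, the difference between the early and late steps was described and not tested.

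Large subunit factors ranged from −0.01 to 0.85 over 14 genes, with a median of 0.39. Ppan (chromosome 9, 20888175 to 20892178), an early assembly factor, had 680 reads in wild type and 1045 in H222P, or 21.9 and 39.5 CPM, and was 1.80-fold higher (1.63 to 1.98). The products of Pes1, Bop1 and Wdr12 form a stable complex, known as PeBoW, and the ratios of the 3 genes differed. Wdr12 had 1489 and 1942 reads and a ratio of 0.61 (0.51 to 0.71), Bop1 1020 and 1286 reads and 0.56 (0.44 to 0.68), and Pes1 3143 and 3242 reads and 0.27 (0.20 to 0.34). The interval of Pes1, the most abundant of the complex, did not overlap those of the other two. Wdr74 had 0.51 (0.36 to 0.66), the helicase gene Ddx18 0.50 (0.39 to 0.60), and Noc2l and Noc3l, whose products pair on the pre-ribosome, 0.43 (0.34 to 0.52) and 0.40 (0.26 to 0.53). Rrs1 had 0.39 (0.27 to 0.52), the rRNA methyltransferase gene Nop2 0.37 (0.27 to 0.48), Nop16 0.35 (0.23 to 0.47) and Ebna1bp2 0.27 (0.18 to 0.35). At the low end, the GTPase gene Gnl2 had 2155 and 1977 reads and a ratio of 0.10 (0.01 to 0.19). Rrp1 had 4362 and 3708 reads, or 141 and 140 CPM, and a ratio of −0.01 (−0.07 to 0.06). Of 51 further large subunit genes, 1 was at least 1.5-fold higher and 0 lower. Beside these stand 10.9% and 11.5% of all measured genes, and 4.43% and 7.91% of genes with a mean of 20 CPM or more. In 46 of the 51 large subunit genes the log2 ratio was above 0 (median 0.27), against 49.2% of all measured genes.

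Levels per length spread over a wide range in both libraries. Npm1 stood highest, at 1750.5 CPM per kilobase of coding sequence in wild type and 2223 in H222P, and Utp20 lowest, at 6.23 and 8.47. Nop10 (468 and 444) and Ncl (402 and 551) followed Npm1 and changed places between the libraries. Nop58 (181 and 233) and Nhp2 (147 and 193) came next. Subunits of 1 particle were not at 1 level: in the box H/ACA particle, Dkc1 stood at 72.0 and 110 and Gar1 at 37.6 and 53.6, well under Nop10. Reads on untranslated parts were counted while the length was that of the coding sequence, so genes with long untranslated parts are set too high. Nop10 has 192 coding bases among 1109 exon bases, and Ncl 2121 among 10188. The order of Nop10 against Ncl and Dkc1 thus depends on the length used. In CPM without length, Dkc1 (110 and 167) stood above Nop10 (89.8 and 85.3).

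**Figure D3:**
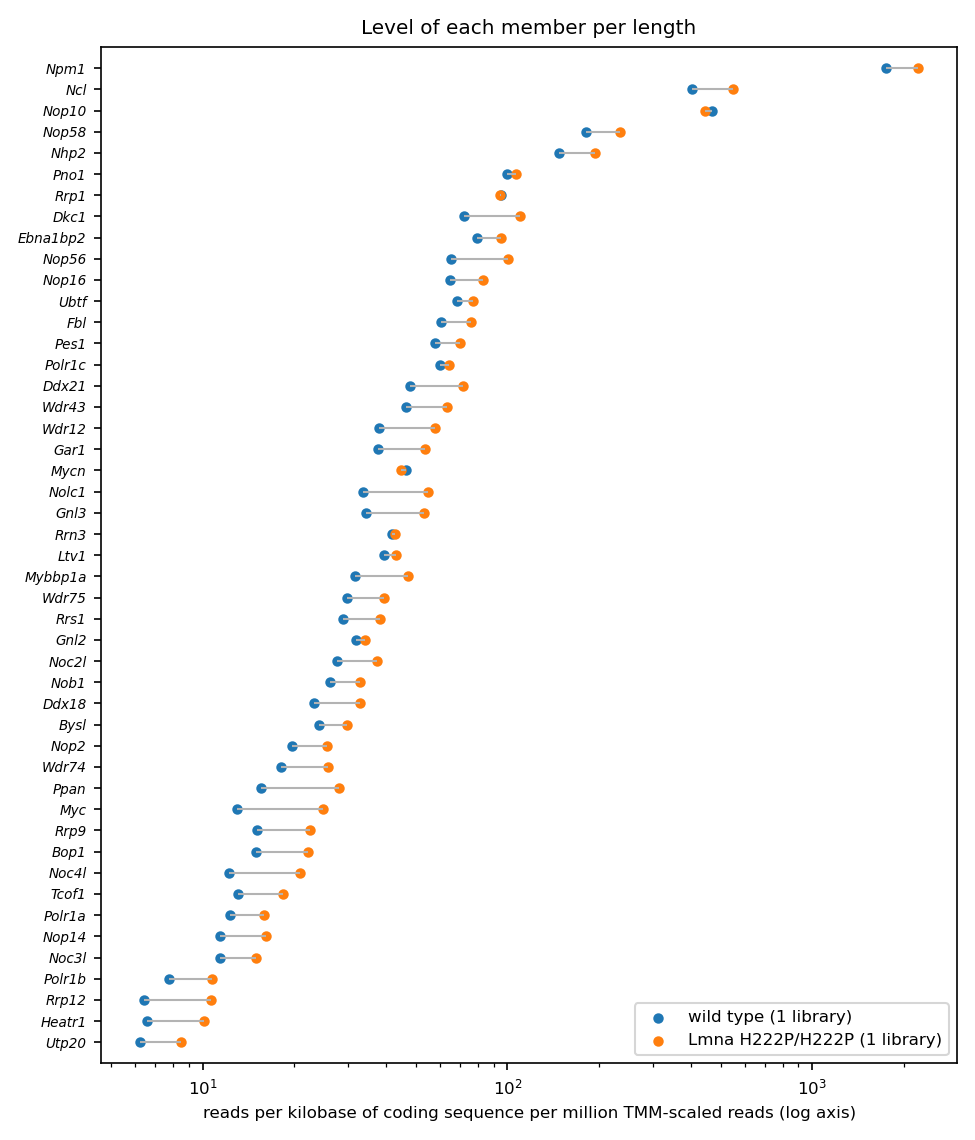
Level of each of the 47 members in TMM-scaled CPM per kilobase of coding sequence (log axis), wild type in blue and H222P in orange, 1 library each, ordered by the mean of both. Npm1 stands at the top at 1750.5 and 2223 and Utp20 at the bottom at 6.23 and 8.47, and in Nop10, Mycn and Rrp1 the H222P point lies at or left of the wild type point.

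A feature that the choice of members did not use is the snoRNA gene inside an intron. In GENCODE release M21, 7 of the 47 members (14.9%) held 21 annotated snoRNA genes on their strand, against 1.67% of 13232 measured protein-coding genes and 3 of 113 other ribosome biogenesis genes. Nop56 held 5, Nop58 4, Ncl, Gnl3 and Wdr43 3 each, Ppan 2 and Dkc1 1. All 7 had log2 ratios above 0, as had 37 of the 40 members without one. At least 1.5-fold higher were 4 of the 7 and 6 of the 40, and the medians were 0.61 and 0.39. The snoRNA entries themselves held at most 9 reads in either library and were not compared. Noncoding host genes of snoRNAs had 2 of 13 at least 1.5-fold higher and 0 lower (median 0.24). Gas5, the most abundant of these hosts, had 4560 and 3155 reads and a ratio of −0.31 (−0.37 to −0.24), Snhg3 0.72 (0.39 to 1.06) and Snhg18 −0.42 (−0.69 to −0.16).

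The rest of the pathway, 113 genes beyond the members, leaned the same way in sign with a lower median. Of these, 99 had a log2 ratio above 0, against 49.2% of all measured genes, and the median was 0.24. Past 1.5-fold, 3 were higher and 1 was lower, smaller shares than the 10.9% and 11.5% of all measured genes. Both shares were also smaller than the 4.43% and 7.91% of genes with a mean of 20 CPM or more. The 3 higher genes were Rcl1, Nol10 (1.65-fold) and Mdn1 (1.59-fold), an ATPase that strips factors from the pre-ribosome; the last pair was named after the values were seen. Rsl1d1, the most abundant of them, had 0.27 (0.22 to 0.32). Among the lists nearest in function, medians were above 0 for RNA exosome and RNA polymerase III genes and below 0 for p53 targets. RNA exosome genes, whose products trim pre-rRNA, had 1 of 13 at least 1.5-fold higher and 0 lower (median 0.16), with Exosc5 at 0.69 (0.49 to 0.89), Mtrex at −0.06 (−0.13 to 0.01) and C1d at −0.31 (−0.38 to −0.24). Of 22 RNA polymerase III genes, 17 had a log2 ratio above 0 and 0 were at least 1.5-fold lower (median 0.18). Gtf3c1, the most abundant, had −0.13 (−0.19 to −0.07) and Polr3gl, the lowest, −0.29 (−0.47 to −0.12). Targets of p53, the factor activated when ribosome assembly is disturbed, had 0 of 18 higher and 2 lower (median −0.06). Among these, Ccng1 had 10205 and 5211 reads and a ratio of −0.74 (−0.79 to −0.70), Perp −1.48 (−1.59 to −1.38) and Sesn2 0.28 (0.06 to 0.51).

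Ribosomal protein genes did not share the members' shift in log2 ratio. Of 78 measured cytoplasmic ribosomal protein genes, 0 were at least 1.5-fold higher and 3 were lower, and their median of −0.04 became 0.11 when libraries were scaled by total counts, as did that of all genes (−0.01 and 0.14). Small and large subunit proteins had medians of −0.02 and −0.05. Among those with a mean of at least 5 CPM, Rpsa stood highest at 0.28 (0.26 to 0.29), and Rpl29 lowest at −3.17 (−3.28 to −3.06). Near-identical copies elsewhere in the genome were searched only for the members, so their part in the Rpl29 value was not tested. S phase genes stood closest to the members, with 4 of 27 at least 1.5-fold higher, 0 lower and a median of 0.38. Ccne1 was 2.01-fold higher (log2 interval 0.89 to 1.12), and the log2 ratio was 0.34 (0.30 to 0.38) for Rrm1 and 0.01 (−0.10 to 0.12) for Gins2. G2/M genes had 1 of 22 higher, 0 lower and a median of 0.10, with Mki67 at 0.72 (0.69 to 0.75), Top2a at 0.11 (0.08 to 0.14) and Cenpf at −0.31 (−0.36 to −0.26). Whether the members' median differs from that of any of these lists could not be tested with 1 library per genotype.

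**Figure D4:**
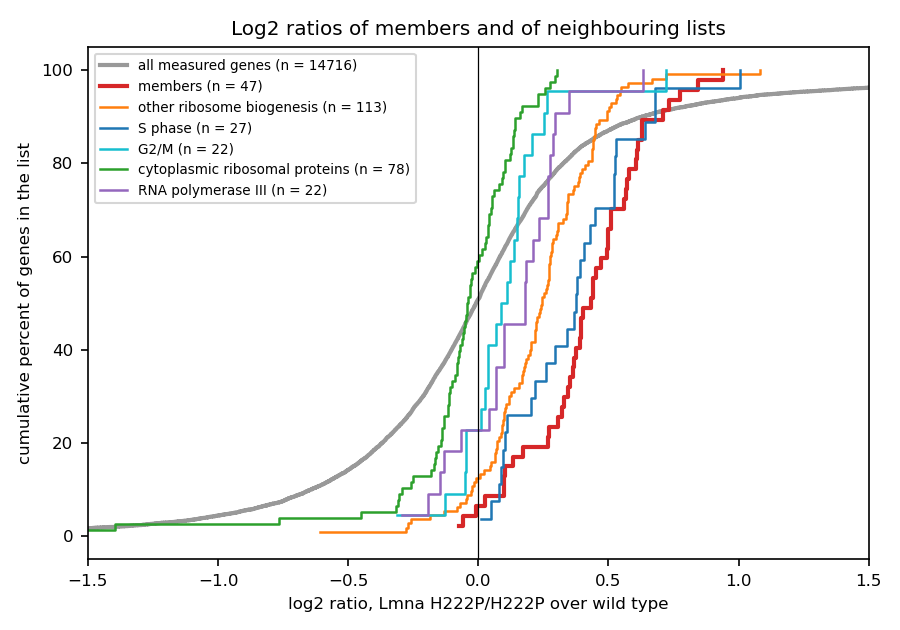
Cumulative percent of genes (vertical axis) against the log2 ratio of H222P over wild type (horizontal axis, shown from −1.5 to 1.5) for the 47 members, 5 other lists and all 14716 measured genes. The curve of the members (median 0.43) lies nearest to that of S phase genes (0.38), and the curve of ribosomal protein genes (−0.04) crosses that of all genes near 0.

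Few members had many reads on the opposite strand, and 5 had near-identical annotated copies elsewhere. Reads on the opposite strand were under 3% of both strands' reads in each library for 45 of the 47. The exceptions were Bysl, which overlaps Ccnd3 on the other strand (66.9% in wild type and 62.2% in H222P), and Heatr1 (6.69% and 5.46%), which overlaps Lgals8. These reads are not in the column used. For 5 members, transcripts of at least 95% identity over at least 25% of their length exist elsewhere: 4 for Npm1, 3 for Nop56, 2 for Pes1 and 1 each for Fbl and Ddx18, all annotated as processed pseudogenes. The Npm1 copies held 2657 and 2417 reads, a ratio of 0.09, and adding them moved Npm1 from 0.35 to 0.33. The Fbl copy held 338 and 363 reads, and adding it left Fbl at 0.32. Reads that map to several places were not counted, so the levels of these genes are uncertain.

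The median of the members stood 0.44 above that of all measured genes. Another scaling shifts all log2 ratios by the same amount, so it cannot change this difference and is no check of it, while counts past a fixed fold move with the scaling. With total counts, 24 members were at least 1.5-fold higher and all 47 had a log2 ratio above 0, Nop10, Mycn and Rrp1 included at 0.08, 0.10 and 0.14, but 15.2% of all genes were then at least 1.5-fold higher and 64.7% above 0. With DESeq2 size factors 8 members were at least 1.5-fold higher.

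**Figure D5:**
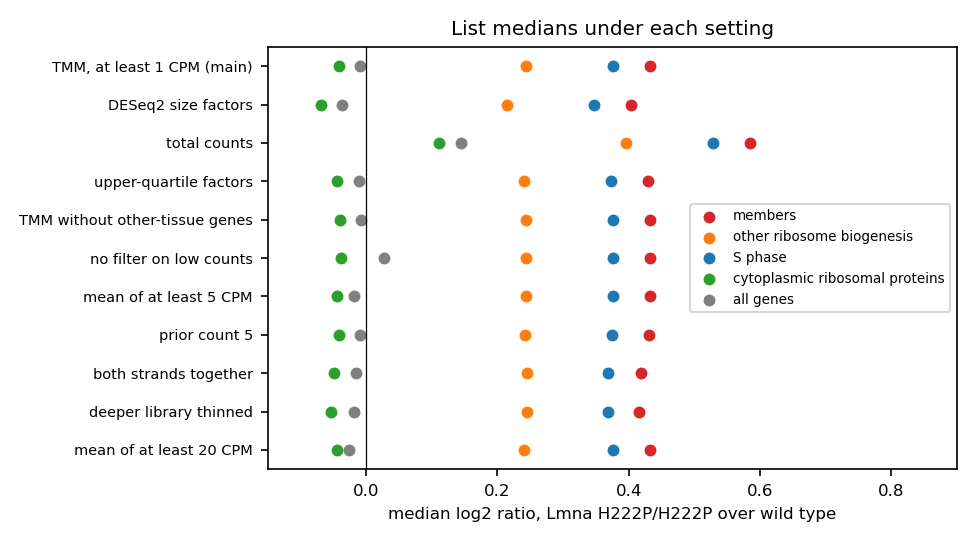
Median log2 ratio of H222P over wild type (horizontal axis) for the members, 3 other lists and all genes under each processing setting (rows). Total-count scaling moves every median to the right together, the members to 0.59 and all genes to 0.14, and in each row the members lie to the right of the other lists.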

How the data were processed

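RNA-seq was available from 2 libraries, 1 per genotype, grouped by genotype. The tables as deposited give unnormalized read counts for each gene. Build mm10 and the tools STAR, HTSeq and DESeq are named, per the submitters' processing notes, without versions or roles, and no source used here names the annotation release. Each table holds 3 count columns, and the reverse-strand column was used because it held 19.3 and 20.5 times the reads of the other strand. The 4 summary entries were not part of the library sizes. Of all reads, 5.40% and 5.10% were unmapped, multiply mapped 5.37% and 6.09%, outside genes 3.88% and 4.45%, and ambiguous 2.53% and 2.38%.

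Libraries were scaled by TMM (edgeR 4.0.16, R 4.3.3). Log2 ratios used a prior count of 0.5 over genes whose mean reached 1 CPM. Intervals are exact Clopper-Pearson intervals of the share of reads (scipy 1.17.1), tested on simulated data. They cover counting error only, and PCR copies, not marked by molecular identifiers, are not separate molecules. Annotation came from GENCODE M21, with coding length from the longest principal isoform, and copies from blastn 2.17.0. Promoter sequences are RefSeq's.

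No test between genotypes was possible. Members and lists were chosen with earlier results of these data known. All members are named, and in other lists the most abundant, highest and lowest gene with a mean of at least 5 CPM; 1 gene that this rule names is not reported here. Symbols absent from the files (3 of 116 other ribosome biogenesis genes) were left out. As alternatives, libraries were scaled by total counts, upper-quartile factors and size factors of DESeq2 1.42.0, and further ones were scaling without other-tissue genes, other filters and prior count, both strands together and thinning; the 20 CPM background, the copies and the ETS-type sequence were added after seeing the data.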

Additional observations from a re-analysis of the deposited data

How the results depend on the processing

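Of the alternatives run, scaling by total counts changed the counts and medians by the most. It gave 24 members at least 1.5-fold higher with a median of 0.59, and 22 other ribosome biogenesis genes higher and 0 lower with a median of 0.40, while the median of all genes moved from −0.01 to 0.14. Genes higher were then 66.2% of all genes at least 1.5-fold apart, against 48.7% with TMM. Under the other 8 planned settings the members at least 1.5-fold higher numbered 8 to 10, those with a log2 ratio above 0 numbered 43 or 44, and the median ran from 0.40 to 0.43. None of the settings gave a member at least 1.5-fold lower. Signs changed for 3 members with total counts and for Rrn3 with DESeq2 size factors. No paired analysis was possible because each genotype has 1 library, and no library could be left out. Depth set intervals from 0.04 wide on the log2 scale for Npm1 to 0.31 for Myc; variation between hearts could not be estimated.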

Other observations

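Gm42418, a noncoding entry on chromosome 17 (39846958 to 39848788, plus strand) picked after its values were seen, overlaps an annotated ribosomal RNA gene on the other strand. Its reads numbered 16782 in wild type and 21327 in H222P, which is 0.57 (0.54 to 0.60) on the log2 scale. No source used here states how ribosomal RNA was depleted, and the part of depletion in this value was not tested.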
